A study of Mus musculus with 60 samples.

Results

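The endoplasmic reticulum (ER) folding machinery and the unfolded protein response were followed through 39 mouse genes, picked by symbol from what their proteins do. The rule uses no measured value, but the genes were chosen with earlier results of these data known. Of the 39 genes, 37 had a probe on the arrays and 28 were measured well enough to be tested, out of 8103 genes tested in all. By role they are chaperones with their co-chaperones, disulfide enzymes, stress sensors and transcription factors, the translocation channel, and ER-associated degradation. 

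Secreted and membrane proteins enter the ER through the Sec61 channel, where Hsp70 and lectin chaperones fold them and protein disulfide isomerases, reoxidised by Ero1, form their disulfide bonds. When unfolded protein builds up, the sensors Ern1 (IRE1), Eif2ak3 (PERK) and Atf6 turn on the unfolded protein response. Ern1 splices Xbp1 mRNA, Atf6 is cut into a transcription factor, and Eif2ak3 slows translation while favouring Atf4, so that chaperones and degradation genes are induced. Cells that secrete much matrix, such as fibroblasts and myoblasts, carry a large folding machinery.

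The cells were 5 mouse lines, per the labels of a study of OPMD. OPMD stands for oculopharyngeal muscular dystrophy, a muscle disease caused by alanine expansions in PABPN1, a nuclear poly(A)-binding protein. IM2 was the untransfected line, WTA (high level) and WTD (low level) had been transfected with wild-type Pabpn1, and D7E (high) and D7F (low) with a mutant form of it. The labels hold 3 cultures of every line, so 12 transfected cultures stood against 3 of IM2. Each genotype at each level was a single line. The labels give no tissue, no promoter, no mutation and no line with an empty vector, so the act of transfection, the choice of a line and Pabpn1 itself cannot be told apart in a comparison with IM2. Total RNA of each culture was hybridised with a common IM2 reference on 2-colour arrays in 2 parts with different probes, each part with both dye orientations, which made 60 arrays. A value is a log2 ratio of culture over that reference, the mean of both orientations, so a value of 0 means the level of IM2. A difference is a log2 difference between lines, and the error beside it is its standard error (SE). Ratios hold no absolute level, and levels of different genes were not compared. Fewer cells of a type and less RNA per cell cannot be told apart in such bulk RNA. Nothing in the labels says whether the 3 cultures of a line came from separate thaws or passages, so p-values measure only the spread between these cultures.

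The labels were checked on Pabpn1 first. Its mean log2 ratio was -0.18 in IM2, 2.19 for WTA and 1.43 for WTD, and 1.61 for D7E and 0.92 for D7F, and the transfected lines lay 1.72 above IM2 (SE 0.11, adjusted p = 7.05e-06). The direction of the ratios was itself read from this rise of Pabpn1, so the sign of the rise is no check. The lines labelled high had the higher mean within each genotype, an order which that reading did not set. Arrays differed in quality: 10 of the 60 were poor, with over 20% of the filled values at the limit of the scale or under 75% of rows filled. Of these 6 were among the 12 IM2 arrays, including all 4 of IM2 culture 1, so the baseline of every comparison with IM2 is its weakest part. The agreement of both dyes was weak: over the probes of part I, the paired arrays of a transfected culture had a median r of 0.1302, and over those of part II 0.1169. For IM2, where culture and reference are the same line, part I gave -0.3465 to -0.1697 and part II -0.09872 to 0.007847. The lowest r between arrays of 1 orientation was -0.2382, and -0.4781 with the limit values kept, both between IM2 culture 1 and D7E culture 3 on part I. The dyes are given in the labels and the direction was kept.

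The DNA through which Atf6 and Xbp1 act on chaperone genes is known as the ER stress response element (ERSE), CCAAT and CCACG held apart by any 9 bases. It was searched on both strands of the promoter sequences of RefSeq (build GRCm38.p6), from 250 bases before to 50 bases after each start. ERSE was found in 39 of 32544 distinct promoters (0.12%), and 9 of the 32 members with a promoter entry held it. These sites are shown because a larger share of the members than of all promoters held them, although 23 of the 32 did not, with the fixed bases in capitals and the positions counted from the start of the gene, in the 5′ to 3′ direction of the element.
Hspa5, chr2:34772025-34772043, bases -65 to -47: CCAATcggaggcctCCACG
Hsp90b1, chr10:86705638-86705656, bases -212 to -194: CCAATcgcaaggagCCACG
Hsp90b1, chr10:86705533-86705551, bases -107 to -89: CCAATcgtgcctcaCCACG
Calr, chr8:84847075-84847093, bases -162 to -144: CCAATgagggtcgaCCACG
Creld2, chr15:88819520-88819538, bases -126 to -108: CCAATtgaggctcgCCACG
Canx, chr11:50325800-50325818, bases -145 to -127: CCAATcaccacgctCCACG
Pdia6, chr12:17266491-17266509, bases -98 to -80: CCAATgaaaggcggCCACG
Dnajc3, chr14:118937827-118937845, bases -105 to -87: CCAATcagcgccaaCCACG
Ero1b, chr13:12565682-12565700, bases -201 to -183: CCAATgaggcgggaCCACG
Syvn1, chr19:6046532-6046550, bases -44 to -26: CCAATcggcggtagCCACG

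The shorter ERSE-II, ATTGG and CCACG with 1 base between them, was in 12 of the 32544 promoters (0.0369%) and in 1 member, Dnajb11, at bases 8 to 18 of the transcript. The XBP1 site TGACGTGG was in 0.682% of all promoters and in 2 members, Txndc5 and Vcp. Short sites were common everywhere. CCACG, which lies inside ERSE, was in 33.0% of all promoters and 26 of the 32 members, ACGTG, the core that hypoxia-inducible factors bind and which can overlap CCACG, was in 19.7% and 14 members, and GCGTG was in 32.6% and 20 members. TTGCATCA, a site for Atf4 and Ddit3 with their partners, was in 0.867% of promoters and in no member. Atf6, Hyou1, Manf, Sec61a1, Derl1, Erp29 and Sil1 had no entry. A match describes the letters and is no measured binding.

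To set the elements in their context, the 250 bases before the start are printed for 5 ERSE genes that the results turn on, with the fixed bases of ERSE in capitals, and for Ero1a, which held no ERSE, with ACGTG and GCGTG on either strand in capitals (3 sites). Each is read along the strand of its gene, so an element of the opposite strand appears as its reverse complement.
Hspa5, chr2:34771840-34772089, plus strand: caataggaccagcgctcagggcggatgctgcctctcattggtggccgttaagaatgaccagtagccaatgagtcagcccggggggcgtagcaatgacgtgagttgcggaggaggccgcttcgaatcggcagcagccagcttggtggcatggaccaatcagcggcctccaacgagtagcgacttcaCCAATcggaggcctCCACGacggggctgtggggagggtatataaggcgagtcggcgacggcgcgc
Hsp90b1, chr10:86705445-86705694, minus strand: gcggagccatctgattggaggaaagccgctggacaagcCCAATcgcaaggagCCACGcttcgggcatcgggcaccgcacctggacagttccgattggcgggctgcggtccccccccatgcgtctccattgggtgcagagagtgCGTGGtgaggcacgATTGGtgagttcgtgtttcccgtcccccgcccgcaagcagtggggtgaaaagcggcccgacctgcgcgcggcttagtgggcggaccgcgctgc
Calr, chr8:84846932-84847181, minus strand: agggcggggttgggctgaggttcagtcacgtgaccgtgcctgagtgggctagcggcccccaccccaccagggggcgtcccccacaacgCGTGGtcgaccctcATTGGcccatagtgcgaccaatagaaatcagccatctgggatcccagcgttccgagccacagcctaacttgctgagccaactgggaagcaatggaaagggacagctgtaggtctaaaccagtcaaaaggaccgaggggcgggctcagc
Creld2, chr15:88819396-88819645, plus strand: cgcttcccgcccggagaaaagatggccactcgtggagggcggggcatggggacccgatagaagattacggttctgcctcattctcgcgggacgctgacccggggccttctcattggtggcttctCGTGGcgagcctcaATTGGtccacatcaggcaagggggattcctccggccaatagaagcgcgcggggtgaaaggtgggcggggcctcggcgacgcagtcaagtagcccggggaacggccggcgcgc
Canx, chr11:50325674-50325923, minus strand: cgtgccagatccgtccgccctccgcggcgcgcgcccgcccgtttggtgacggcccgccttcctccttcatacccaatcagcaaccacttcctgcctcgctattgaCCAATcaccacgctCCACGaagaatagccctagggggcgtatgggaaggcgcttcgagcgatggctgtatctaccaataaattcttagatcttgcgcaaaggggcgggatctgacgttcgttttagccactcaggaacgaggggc
Ero1a, chr14:45318573-45318822, minus strand: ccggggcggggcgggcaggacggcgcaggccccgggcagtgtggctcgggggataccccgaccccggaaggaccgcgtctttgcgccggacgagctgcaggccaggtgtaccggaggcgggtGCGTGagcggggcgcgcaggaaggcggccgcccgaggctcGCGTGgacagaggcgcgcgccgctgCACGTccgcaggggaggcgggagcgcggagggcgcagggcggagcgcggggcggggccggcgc

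Against IM2, the folding genes were lower in the transfected lines. Of the 28 tested genes 13 fell and 1, Vcp, rose (limma with Benjamini-Hochberg adjustment over all 9710 tested probes, adjusted p under 0.05). The same call took 15.7% of all 8103 genes, with 8.89% lower and 6.81% higher. The median difference was -0.43 over the 28 genes and 0.03 over all genes, and 24 of the 28 were below 0. The largest falls were those of the ER oxidase Ero1a (-2.47), the isomerases Pdia5 (-1.66) and P4hb (-1.39) and the chaperone Hspa5 (-1.45). In 12 of the 28 genes every measured transfected culture lay below every measured IM2 culture, which held for 7.03% of all genes. For Pdia5, which is among them, 11 transfected cultures were measured. By role, 6 of 10 tested chaperones fell, 4 of 7 disulfide enzymes, 1 of 3 sensors and factors, 1 of 4 channel genes and 1 of 4 degradation genes. With 1 array enough for a culture 9 members were called. Leaving out the 10 poor arrays needed that setting too, since on part II no IM2 culture then keeps both dyes, and gave 4 of 31 tested, Ero1a, P4hb, Pdia5 and Dnajb9. Every value below without the poor arrays carries both changes. Without IM2 culture 1 the count was 8 of 28. Reading all IM2 arrays with the opposite sign gave 17, of which 15 were lower. The share of all genes called in these other settings is not given here, so these counts describe the members alone.

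**Figure D1:**
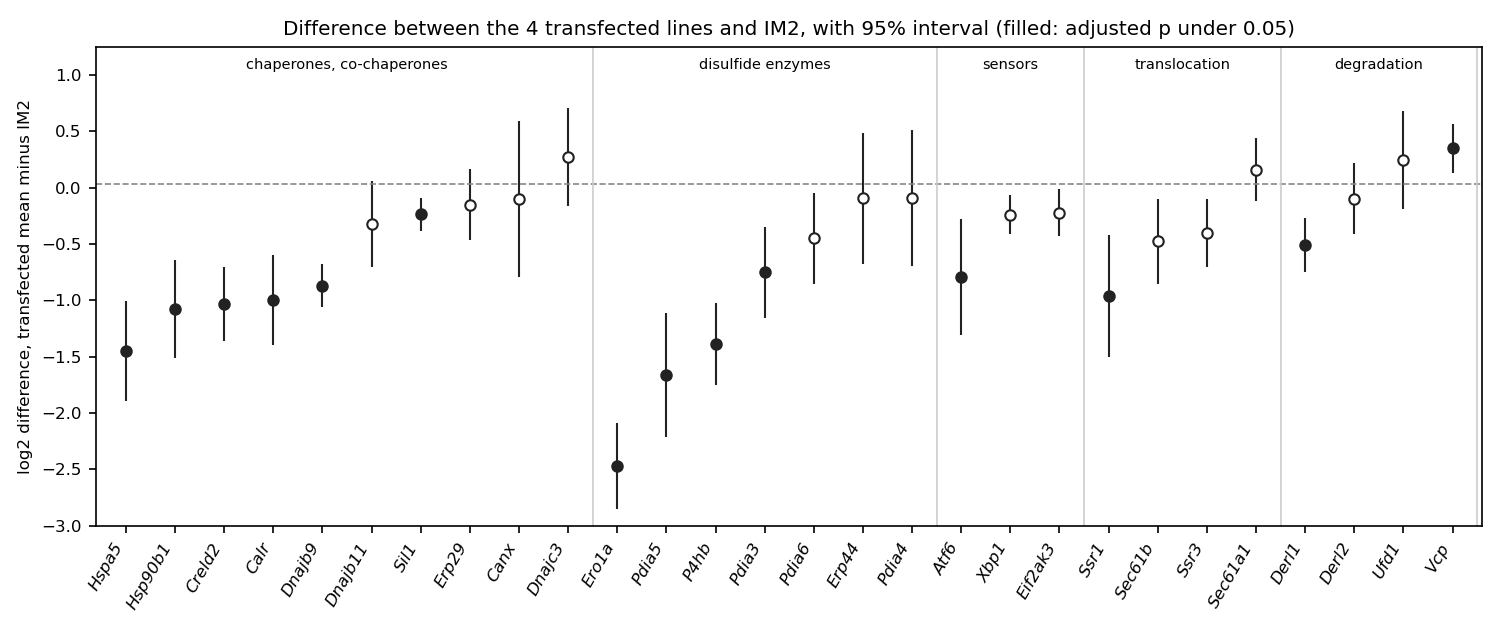
Log2 difference between the mean of the 4 transfected lines and IM2 (vertical axis) for each of the 28 tested genes, grouped by role, with its 95% interval. Filled points passed adjusted p under 0.05, and the dashed line is the median of all genes, 0.03. Ero1a is the lowest at -2.47, and Vcp is the filled point above 0, at 0.35.

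Among the chaperones, the fall was shared by the Hsp70, the Hsp90 and a lectin of the ER lumen. Hspa5 (BiP), the Hsp70 that binds nascent chains and holds the stress sensors inactive, read 0.34, 0.09 and -0.22 in the IM2 cultures, -1.98, -2.14 and -1.32 in those of WTA, -1.26, -1.06 and -1.11 in those of WTD, -1.65, -1.33 and -0.89 in those of D7E and -1.58, -1.42 and -0.82 in those of D7F. No transfected culture reached the IM2 range. The difference was -1.45 (SE 0.21, adjusted p = 0.000604), a 2.73-fold fall. Hsp90b1 (Grp94), the ER form of Hsp90, read 0.20, -0.11 and -0.53 in the IM2 cultures, -1.75, -1.80 and -1.01 in those of WTA, -0.90, -1.10 and -1.25 in those of WTD, -1.28, -0.66 and -1.32 in those of D7E and -1.36, -1.27 and -0.97 in those of D7F. It too was lower in every transfected culture than in any of IM2, by 1.08 (SE 0.20, adjusted p = 0.0046). Calr (calreticulin), a calcium-binding lectin that holds glycoproteins until they fold, read 0.34, -0.26 and -0.23 in the IM2 cultures, -1.70, -1.40 and -1.08 in those of WTA, -0.66, -0.58 and -0.94 in those of WTD, -1.06, -0.63 and -1.37 in those of D7E and -1.09, -1.26 and -0.79 in those of D7F. The groups did not overlap and the difference was -0.997 (SE 0.18, adjusted p = 0.00453). All 3 calls were lost without the 10 poor arrays, at adjusted p of 0.0683 for Hspa5, 0.0999 for Hsp90b1 and 0.0881 for Calr, with differences of -1.18, -0.90 and -0.79.

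A second Hspa5 probe on the same array part read differently. It differed by -0.13 between transfected lines and IM2 (SE 0.14, adjusted p = 0.539), and its transfected cultures, at -0.37 to 0.19, overlapped those of IM2, at -0.02 to 0.15. Both probes had 30 values inside the limits and all 15 cultures, so the probe used for the gene was set only by the order of the probe IDs. Which of the probes reads Hspa5 was not tested. The fall of Hspa5 was read by 1 of 2 probes.

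Creld2, an ER protein induced by stress, read 0.32, 0.16 and 0.17 in the IM2 cultures, -1.27, -0.75 and -0.59 in those of WTA, -0.49, -1.11 and -1.04 in those of WTD, -0.80, -0.81 and -0.93 in those of D7E and -0.80, -0.65 and -0.52 in those of D7F. Here all IM2 cultures were above 0 and all transfected cultures below it, with a difference of -1.03 (SE 0.15, adjusted p = 0.000881). The call was lost on the arrays with the culture in Cy5 alone (-0.71, adjusted p = 0.145) and without the poor arrays (-0.72, adjusted p = 0.227). Dnajb9 (ERdj4), a J-domain partner of Hspa5 that Xbp1 induces, varied little between cultures of a line. It read 0.13, -0.19 and -0.14 in the IM2 cultures, -1.10, -1.31 and -1.10 in those of WTA, -0.76, -0.83 and -0.62 in those of WTD, -0.91, -1.03 and -0.96 in those of D7E and -0.90, -0.88 and -0.85 in those of D7F. Its difference of -0.87 (SE 0.09, adjusted p = 0.000108) was called in all 27 other settings and cultures left out, between -1.004 and -0.75. Sil1, which exchanges the nucleotide of Hspa5, read 0.08, -0.04 and -0.04 in the IM2 cultures, -0.15, -0.16 and -0.22 in those of WTA, -0.32, -0.39 and -0.31 in those of WTD, -0.43, -0.40 and -0.31 in those of D7E and -0.05, -0.04 and -0.09 in those of D7F. It fell by only 0.24 (SE 0.07, adjusted p = 0.0321), and the highest transfected culture was just under the lowest of IM2. The Sil1 call held in 4 of 12 other settings. It was lost when IM2 culture 1, 2 or 3, WTD culture 2, D7E culture 1 or D7F culture 3 was left out, with differences of -0.26 to -0.20 and adjusted p of 0.0502 to 0.137.

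The other chaperones did not pass. Dnajb11 (ERdj3), a further J-domain partner, differed by -0.32 (95% interval -0.71 to 0.06), Dnajc3, which restrains Eif2ak3, by 0.27 (95% interval -0.16 to 0.71) and Erp29 by -0.15 (95% interval -0.47 to 0.17). Canx (calnexin), the membrane-bound partner of Calr, averaged -0.02 ± 0.48 (SD, n = 3) in IM2 and 0.26 ± 0.86 (SD, n = 3) in WTA, and the difference over all lines was -0.10 (95% interval -0.79 to 0.59). That mean covers opposite readings by dye. Canx differed by -1.70 on the arrays with the culture in Cy3 and by 1.500 on those with it in Cy5. The change of sign lay in the IM2 arrays, which averaged 1.74 in Cy3 and -1.78 in Cy5. The transfected arrays averaged 0.04 in Cy3 and -0.28 in Cy5. The sign likewise differed between dyes for Pdia4, Sec61a1, Sec61b and Erp44, none of which was called, while the other 23 tested genes had 1 sign in both.

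Disulfide enzymes held the largest changes. Ero1a passes electrons from the isomerases to oxygen and so reoxidises them, and it is known to be induced by both ER stress and low oxygen. It read 0.46, -0.26 and -0.15 in the IM2 cultures, -3.06, -2.61 and -2.28 in those of WTA, -2.41, -2.38 and -2.38 in those of WTD, -2.66, -2.19 and -2.72 in those of D7E and -2.18, -2.38 and -2.19 in those of D7F. All transfected cultures lay at or below -2.18 and all IM2 cultures at or above -0.26. The difference of -2.47 (SE 0.18, 95% interval -2.85 to -2.09, adjusted p = 1.31e-05) is a 5.54-fold fall, and it was called in all 27 other settings and cultures left out, between -2.89 and -2.05. P4hb (PDI) is an abundant isomerase of the ER and also the beta subunit of the collagen prolyl 4-hydroxylases. P4hb read 0.26, -0.14 and -0.10 in the IM2 cultures, -1.85, -1.70 and -0.92 in those of WTA, -1.43, -1.51 and -1.39 in those of WTD, -1.60, -1.10 and -1.37 in those of D7E and -1.28, -1.21 and -1.21 in those of D7F. The WTD and D7F cultures lay close together, with means of -1.45 ± 0.06 (SD, n = 3) and -1.23 ± 0.04 (SD, n = 3). The transfected lines were 1.39 lower than IM2 (SE 0.17, adjusted p = 0.000331). Like that of Ero1a, its call held in all 27.

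Pdia5, an isomerase-like enzyme linked to the activation of Atf6, read 0.10, 0.05 and -0.27 in the IM2 cultures, -2.60, -1.70 and -1.79 in those of WTA, -1.95, -2.01 and -2.09 in those of WTD, -1.89 and -1.23 in those of D7E and -0.44, -1.57 and -1.60 in those of D7F. The wild-type lines were the lowest, the transfected cultures did not overlap IM2, and the difference was -1.66 (SE 0.25, adjusted p = 0.00127). On the Cy3 arrays alone the adjusted p was 0.0622. Pdia3 (ERp57), which works on glycoproteins held by Calr and Canx, read 0.22, 0.25 and 0.10 in the IM2 cultures, -0.80, -1.07 and -0.22 in those of WTA, -0.34, -0.57 and -0.79 in those of WTD, -0.71, -0.27 and -0.28 in those of D7E and -0.91, -0.61 and -0.13 in those of D7F. It fell by 0.75 (SE 0.19, adjusted p = 0.0171), with no overlap, and 4 of 12 other settings and leaving out IM2 culture 1 (-0.74, adjusted p = 0.0703) ended the call.

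The remaining disulfide enzymes were not called. Pdia6, an isomerase that acts on Ern1, differed by -0.45 (95% interval -0.85 to -0.04, adjusted p = 0.124), the second largest of the uncalled differences after Sec61b. Pdia4 (ERp72) and Erp44, which holds Ero1 in the early secretory pathway, differed by -0.09 (95% interval -0.70 to 0.52) and -0.09 (95% interval -0.67 to 0.49) and were the nearest to 0 of the 28 genes. Pdia4 averaged -0.54 ± 0.03 (SD, n = 2) in IM2, 0.05 ± 0.05 (SD, n = 2) in WTA and -1.06 ± 0.32 (SD, n = 2) in D7E. Like Canx it had opposite signs by dye, with differences of -1.73 in Cy3 and 1.28 in Cy5. Its IM2 arrays averaged 0.81 in Cy3 and -1.885 in Cy5, and its transfected arrays -0.92 and -0.60.

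**Figure D2:**
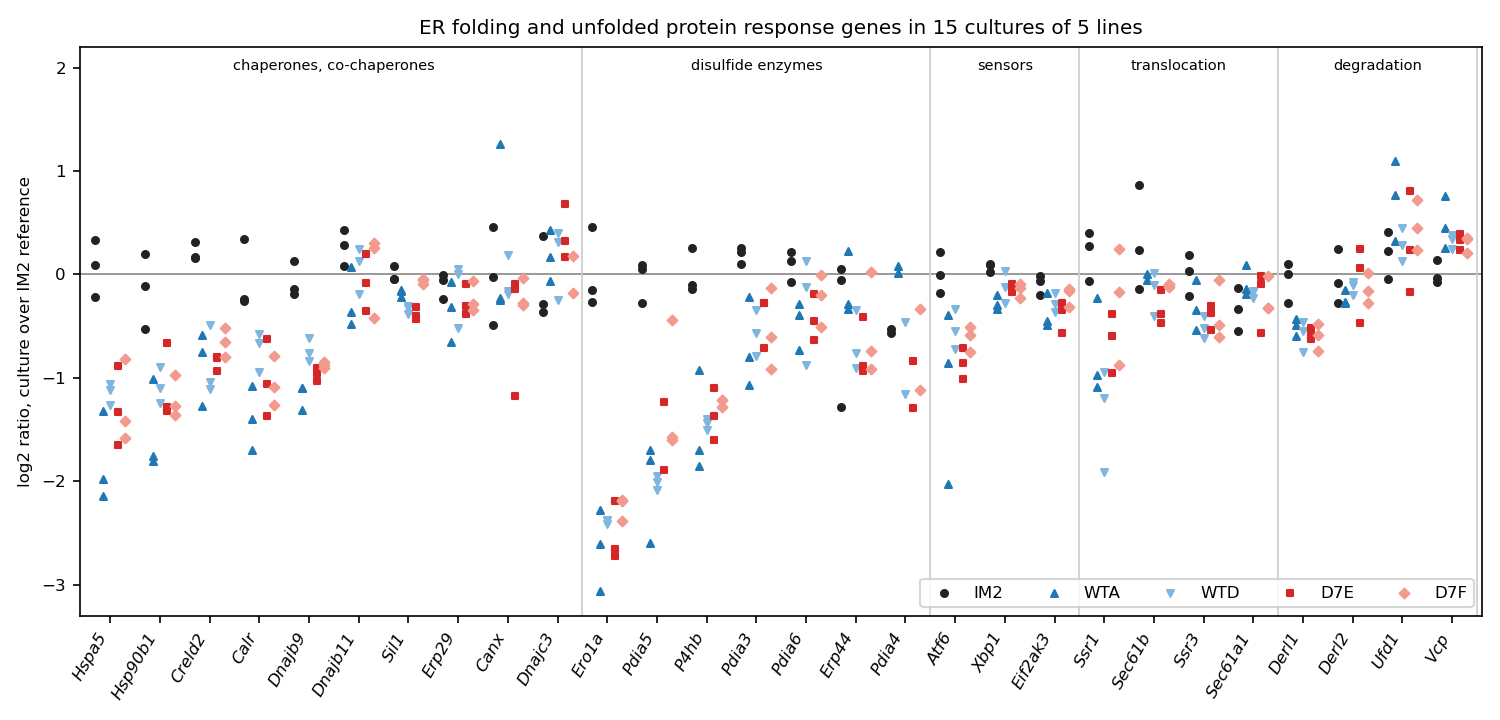
Log2 ratio of each culture over the IM2 reference (vertical axis) for the 28 tested genes, 1 point per culture, coloured by line, with the genes grouped by role. The IM2 points of Ero1a lie between -0.26 and 0.46 and its transfected points between -3.06 and -2.18, while the points of Canx overlap.

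Of the stress sensors, Atf6 was called and the others were not. Atf6, the membrane-bound factor that is cut in the Golgi and then binds ERSE, read 0.22, -0.18 and -0.00 in the IM2 cultures, -0.86, -2.03 and -0.39 in those of WTA, -0.34, -0.55 and -0.72 in those of WTD, -0.86, -0.71 and -1.01 in those of D7E and -0.58, -0.75 and -0.51 in those of D7F. The transfected cultures were all below IM2, but the WTA cultures spread from -2.03 to -0.39. The difference was -0.79 (SE 0.24, adjusted p = 0.0411). Only 4 of 12 other settings kept it, and 11 of the 15 cultures ended the call when left out: every culture of IM2, D7E and D7F, and WTD cultures 2 and 3. Its difference was then -0.88 to -0.69, with adjusted p between 0.0507 and 0.173. Xbp1, the factor that Ern1 splices, read 0.10, 0.02 and 0.09 in the IM2 cultures, -0.29, -0.34 and -0.20 in those of WTA, 0.03, -0.12 and -0.28 in those of WTD, -0.09, -0.17 and -0.14 in those of D7E and -0.23, -0.13 and -0.09 in those of D7F. All but 1 transfected culture were below IM2, yet the difference of -0.24 (SE 0.08, adjusted p = 0.059) did not pass. In WTA alone it did (-0.34, adjusted p = 0.0426). Splicing of Xbp1 was not analysed here. Eif2ak3 (PERK), the kinase of the translational arm, differed by -0.22 (95% interval -0.43 to -0.01, adjusted p = 0.137).

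Of the 4 tested genes of the translocation channel, Ssr1 was called. Ssr1, the alpha subunit of the TRAP complex that sits beside the channel, read 0.28, 0.40 and -0.07 in the IM2 cultures, -1.08, -0.97 and -0.23 in those of WTA, -0.95, -1.20 and -1.91 in those of WTD, -0.95, -0.59 and -0.38 in those of D7E and -0.88, 0.25 and -0.17 in those of D7F. WTD was lowest and 1 D7F culture lay inside the IM2 range. It fell by 0.96 (SE 0.25, adjusted p = 0.0219), and the call ended in 6 of 12 other settings, without IM2 culture 1 (-0.92, adjusted p = 0.0883) and without IM2 culture 2 (-0.86, adjusted p = 0.0704). On the Cy5 arrays alone the difference was -0.30. Ssr3, another TRAP subunit, differed by -0.41 (95% interval -0.71 to -0.10, adjusted p = 0.0665), the small channel subunit Sec61b by -0.48 (95% interval -0.86 to -0.10, adjusted p = 0.0838) and the pore Sec61a1 by 0.16 (95% interval -0.12 to 0.44).

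The degradation genes were split. Derl1, a derlin that helps move misfolded protein out of the ER membrane, read 0.11, -0.28 and 0.00 in the IM2 cultures, -0.59, -0.43 and -0.48 in those of WTA, -0.55, -0.46 and -0.75 in those of WTD, -0.52, -0.57 and -0.62 in those of D7E and -0.48, -0.74 and -0.59 in those of D7F. It was lower in all 12 transfected cultures, by 0.51 (SE 0.11, adjusted p = 0.00868), and the lines lay within 0.10 of each other. Its call was lost without IM2 culture 1 (-0.43, adjusted p = 0.0590), on the Cy3 arrays alone (-0.43, adjusted p = 0.206) and without the poor arrays (-0.47, adjusted p = 0.181). Vcp (p97), the ATPase that pulls substrates into the cytosol and also serves many processes outside the ER, was the single gene that rose. It read -0.08, 0.14 and -0.04 in the IM2 cultures, 0.45, 0.26 and 0.75 in those of WTA, 0.25, 0.38 and 0.34 in those of WTD, 0.24, 0.34 and 0.39 in those of D7E and 0.21, 0.34 and 0.35 in those of D7F. The gain of 0.35 (SE 0.10, adjusted p = 0.0357) put all transfected cultures above IM2, but 3 of 12 other settings kept the call. Leaving out IM2 culture 1 or 3, or culture 2 or 3 of WTD, D7E or D7F, ended it, with differences of 0.31 to 0.35 and adjusted p of 0.0516 to 0.145. Ufd1, the substrate-binding cofactor of Vcp, differed by 0.25 (95% interval -0.19 to 0.68) and Derl2 by -0.10 (95% interval -0.41 to 0.22).

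The other 9 genes on the arrays had too few cultures inside the limits to be tested, so nothing can be said of their change. They were Ern1, Ero1b, the chaperones Hyou1, Sdf2l1 and Uggt1, and the degradation genes Sel1l, Syvn1, Edem1 and Os9. Sdf2l1, a partner of Dnajb11, was closest to testable with 10 cultures, -2.17 to -0.44, of which 1 was of IM2 at -0.67. Sel1l, the scaffold of the Syvn1 ligase, had 4 cultures. Its IM2 culture read 0.17 and the 3 transfected ones -3.47 to -0.71, while 10 of its 25 filled array values sat at the lower limit and 1 at the upper. Hyou1, an exchange factor of Hspa5, had 8 cultures at -0.49 to 1.67 around its single IM2 value of 0.17. Os9, a lectin of the degradation route, had 8 cultures at -1.08 to 0.27. Manf and Txndc5 had no probe.

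Each transfected line was then set against IM2. The 4 comparisons share the IM2 cultures, so their likeness is no independent repeat. In WTA 11 of the 28 genes fell, against 6.71% of all genes, and 1 rose, against 5.69%. In WTD 10 fell, against 4.99% of all genes. In D7E 10 fell, against 7.94%, and in D7F 8 fell, against 3.11%. Hspa5, Hsp90b1, Creld2, Dnajb9, Ero1a and P4hb were called lower in all 4 lines, which held for 1.89% of all genes. Without IM2 culture 1 the counts called were 8 in WTA, 6 in WTD, 7 for D7E and 4 for D7F. By sign alone 21 of the 28 were lower in all 4 lines, against 28.6% of all genes. WTA had the lowest mean of 9 of the 13 fallers, and the share over all genes was not computed. Of the poor arrays outside IM2, 3 were of WTA culture 1 and 1 was of WTD culture 1.

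Set side by side, the sizes were close between the lines for some genes and further apart for others. Ero1a differed from IM2 by -2.67 for WTA, -2.40 for WTD, -2.54 for D7E and -2.27 for D7F. For Hspa5 the differences were -1.89, -1.21, -1.36 and -1.34 in the same order. Calr was called in WTA (-1.34), D7E (-0.97) and D7F (-0.998) and missed in WTD (-0.68, adjusted p = 0.0996). Pdia5 was called in WTA (-1.99), WTD (-1.97) and D7E (-1.52) and missed in D7F (-1.16, adjusted p = 0.0602). Derl1 was missed in WTA (-0.45, adjusted p = 0.0566) and called in the others. Sil1 was called in WTD (-0.34) and D7E (-0.38), Ssr1 in WTD (-1.55), and Pdia3 (-0.89), Atf6 (-1.11), Xbp1 (-0.34) and Vcp (0.48) in WTA. A call in 1 line and not in another is no tested difference between them. Fitted with WTA and IM2 only, which leaves 6 cultures to estimate the spread, no member passed in WTA (limma, 17 of 28 at an unadjusted p under 0.05, lowest adjusted p = 0.0504).

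**Figure D3:**
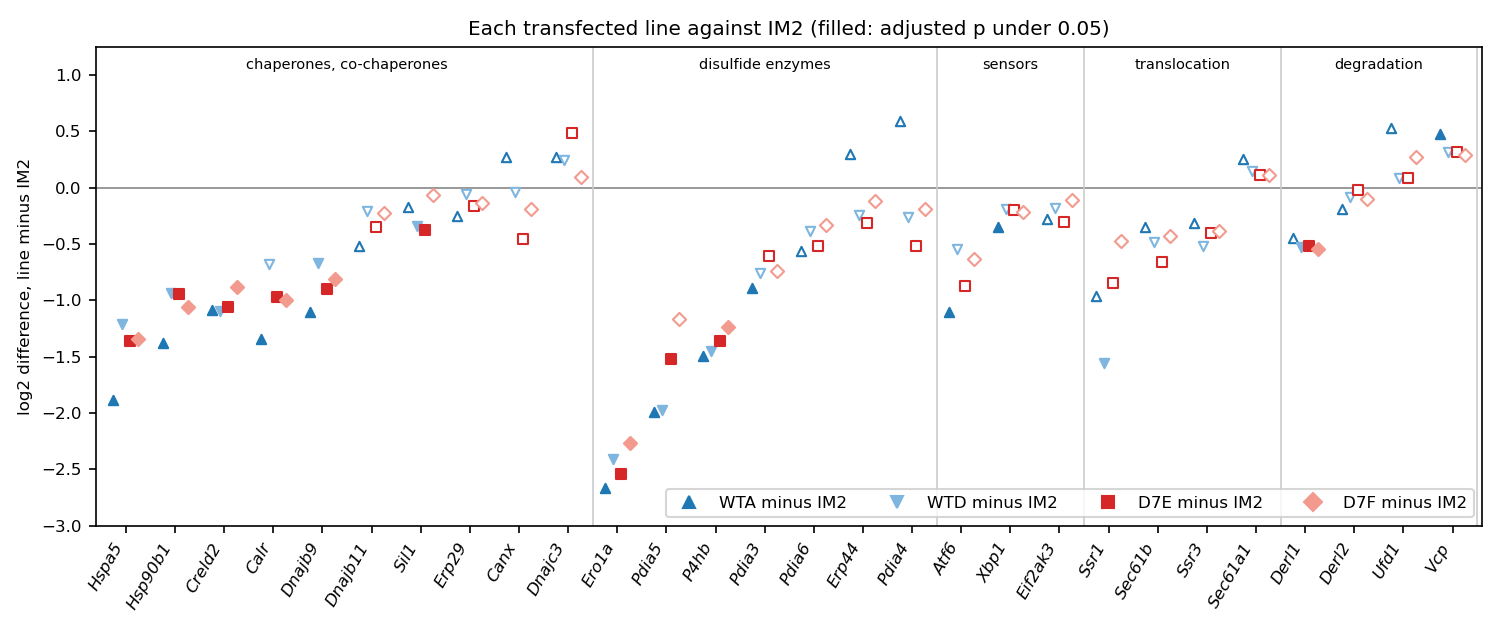
Log2 difference of each transfected line from IM2 (vertical axis) for the 28 tested genes, grouped by role, 1 symbol per line. Filled symbols passed adjusted p under 0.05. The symbols of Hspa5, Hsp90b1, Creld2, Dnajb9, Ero1a and P4hb are filled in all 4 lines, and Pdia4 and Canx spread over both sides of 0.

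The comparisons among the transfected lines, whose differences leave IM2 out although its cultures enter the estimate of the spread, found no member called. Mutant against wild-type Pabpn1 gave 0 of 28 (limma, 2 at an unadjusted p under 0.05), with 0.222% of all genes called. High against low level gave 0 of 28 (limma, 1 unadjusted), with 0.42% called. The genotype by level term, which asks whether the level acts differently in mutant and wild-type lines, gave 0 of 28 (limma, 2 unadjusted), with 2.25% called. Over the 28 genes the median size of the difference was 0.09 for genotype and 0.12 for level, beside 0.11 and 0.12 over all genes. The median 95% interval reached 0.35 to either side. It is not adjusted over the genes, so larger differences can also miss the threshold.

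The nearest to a call were few. Pdia5 was 0.64 higher in the mutant lines (SE 0.24, adjusted p = 0.604) and Ssr1 0.60 higher (SE 0.23, adjusted p = 0.604). Dnajb9 was 0.26 lower at high level in direction (95% interval -0.43 to -0.09, adjusted p = 0.316). Sil1 had the lowest adjusted p of all, 0.0571, for genotype by level. Its means were -0.17 in WTA and -0.34 in WTD, and -0.38 in D7E and -0.06 in D7F, so the low line read lower among wild-type and the high line lower among mutant lines. Restricted to probes measured in all 15 cultures, the fit called Sil1 alone among the members.

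Pairs of lines that share the label of genotype or of level gave no call either. Each pair also differs by line, and the mean of Pabpn1 was not the same in lines of 1 level label. WTA against WTD had 1.86% of all genes called and 0 members (limma, 4 unadjusted; 1 called without IM2 culture 1), with Dnajb9 closest (-0.43, adjusted p = 0.0807). Calr (-0.66) and Hspa5 (-0.67) were also lower in WTA, with intervals of -1.17 to -0.15 and -1.24 to -0.11, and adjusted p of 0.195 and 0.233. D7E against D7F had 0.247% called and 0 members (limma, 1 unadjusted), with Sil1 closest (-0.32, adjusted p = 0.212). D7E against WTA had 1.63% called and 0 members (limma, 2 unadjusted), with Pdia4 closest (-1.11, adjusted p = 0.15). D7F against WTD had 0.469% called and 0 members (limma, 3 unadjusted), with Ssr1 closest (1.08, adjusted p = 0.253).

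Around the 39 genes, further lists of the same pathway were read in the transfected lines against IM2, where 15.7% of all genes were called. Of 23 tested regulators of the PERK and ATF6 arms 9 fell and none rose, with a median of -0.32. Ddit3 (CHOP), a factor that Eif2ak3 signalling induces, averaged -0.10 in IM2 and -2.07, -1.49, -1.87 and -1.86 in WTA, WTD, D7E and D7F. The fall was 1.72 (SE 0.12, adjusted p = 1.1e-05). Trib3, a pseudokinase downstream of Ddit3, fell by 1.18 (adjusted p = 0.000296), Cebpg, a partner of Atf4, by 0.74 (adjusted p = 0.00225) and Atf4 itself by 0.40 (adjusted p = 0.00789). Herpud1, a degradation gene that ER stress induces, differed by 0.01 (adjusted p = 0.973).

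The other folding enzymes of the ER gave 6 falls and no rise among 30 tested, with a median of -0.25. Prdx4, a peroxiredoxin that oxidises PDI, fell by 1.53 (adjusted p = 0.000108) and Vkorc1, the vitamin K epoxide reductase, by 1.05 (adjusted p = 0.000296). Gpx7, a PDI peroxidase, fell by 1.17 (adjusted p = 0.00105), most of it in WTD, where the mean was -3.38 beside -0.72 in WTA, -0.25 in D7E and -0.35 in D7F. Of the collagen-modifying genes 7 of 11 fell and none rose, with a median of -0.59 and 9 of the 11 below 0. Serpinh1, of the same list, was 0.95 higher and missed the threshold (adjusted p = 0.0571). The lysyl hydroxylase Plod2 fell by 1.06 (adjusted p = 0.000383), and the prolyl hydroxylase subunits P4ha1 and P4ha2, the partners of P4hb, by 0.84 (adjusted p = 0.00478) and 0.83 (adjusted p = 0.00719).

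Traffic genes gave smaller list medians. Between ER and Golgi 7 of 33 tested fell and 1 rose, with a median of -0.12, and 5 were called without IM2 culture 1 or 3. The cargo protein Tmed3 fell by 1.18 (adjusted p = 4.07e-05), and Kdelr1 and Kdelr3, receptors that return escaped ER proteins such as Hspa5, by 1.14 (adjusted p = 0.0193) and 1.07 (adjusted p = 0.000321). Of 29 translocation and glycosylation genes 5 fell and 1 rose, with a median of -0.12. The signal peptidase subunit Spcs3 fell by 0.83 (adjusted p = 0.0151), Dpm3, of the mannose donor synthase, by 0.57 (adjusted p = 0.0426) and the oligosaccharyltransferase subunit Ostc by 0.48 (adjusted p = 0.0347). Without IM2 culture 1 none of the 29 passed in limma (10 at an unadjusted p under 0.05). Of 22 further degradation genes none fell and 1, the cytosolic glycanase Ngly1, rose by 0.37 (adjusted p = 0.0102), with a median of -0.04. Ubqln1, of the same list, was counted by a probe that differed by 0.05 (adjusted p = 0.892). Another Ubqln1 probe, left out of the count, rose by 1.30 (adjusted p = 0.00347). Which of these probes reads Ubqln1 was not tested.

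**Figure D4:**
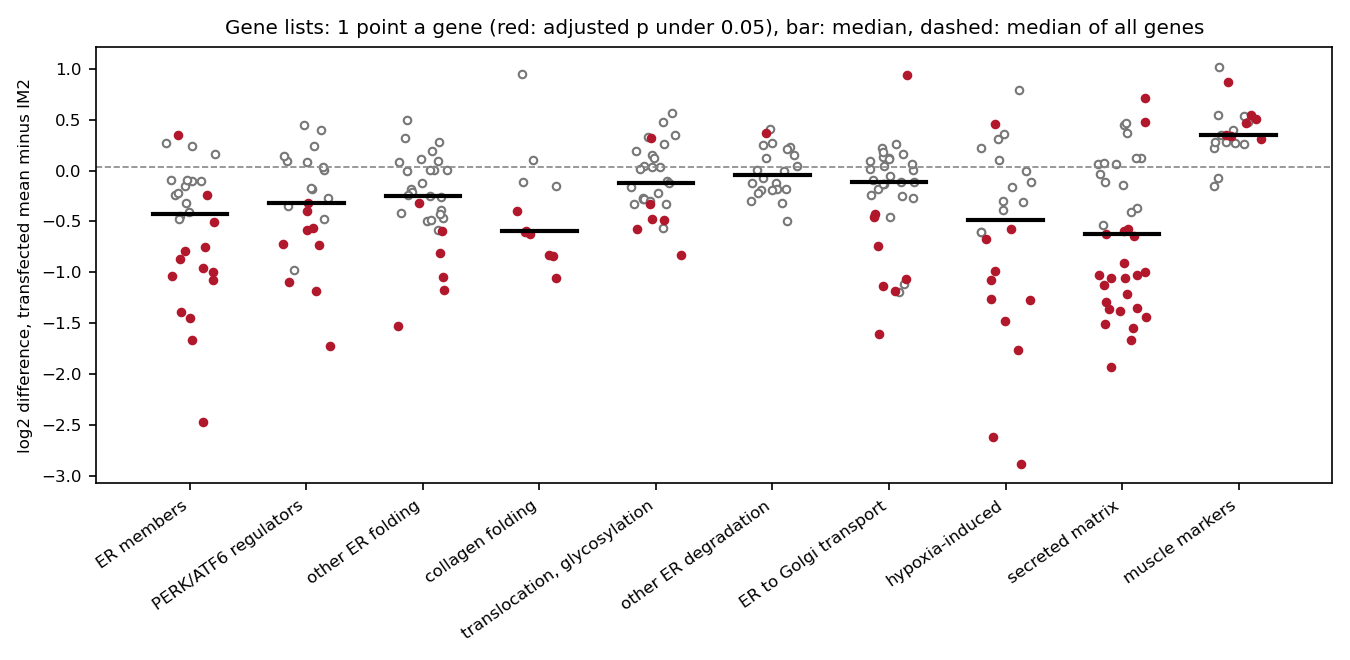
Log2 difference between the mean of the 4 transfected lines and IM2 (vertical axis), 1 point per tested gene, by gene list. Red points passed adjusted p under 0.05, bars are medians, and the dashed line is the median of all genes, 0.03. The list medians are lowest for secreted matrix proteins (-0.62) and collagen folding (-0.59) and highest for muscle markers (0.35).

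Lists that are not about the ER moved with the folding genes. Of 37 secreted matrix proteins, the cargo of this machinery, 21 fell and 2 rose, with a median of -0.62, led by Col11a1 (-1.93, adjusted p = 2.49e-05), Lama4 (-1.67, adjusted p = 5.54e-05) and Col3a1 (-1.44, adjusted p = 0.000336). Of 24 genes known to be induced by low oxygen 10 fell and 1 rose, with a median of -0.48. Ndrg1 fell by 2.88 (adjusted p = 7.05e-06), Adm, which encodes adrenomedullin, by 2.62 (adjusted p = 2.15e-05) and the mitophagy receptor Bnip3 by 1.77 (adjusted p = 5.54e-05). Of 20 muscle markers 7 rose and none fell, with differences from -0.15 to 1.020 and a median of 0.35, among them Tnni2 (0.88, adjusted p = 0.0456), Myf6 (0.54, adjusted p = 0.00384) and Tnni1 (0.51, adjusted p = 0.0347). Without IM2 culture 1 a single muscle marker was called, and without the poor arrays none (limma, 9 of 20 at an unadjusted p under 0.05). Of 9 fibroblast markers 1 rose, Dpt (0.87), and 2 fell, among them Vim at -0.61. The differences over the 9 ran from -1.51 to 0.87, with a median of -0.17. None of 3 adipocyte, 2 endothelial and 4 smooth muscle markers was called by limma (2 smooth muscle markers at an unadjusted p under 0.05, 0 of the others), and no leukocyte marker was tested. Without the poor arrays the calls were 2 among the PERK and ATF6 regulators, 1 among the collagen-modifying genes, 10 among the matrix proteins and 7 among the genes induced by low oxygen. The part of matrix output, oxygen supply or cell type in the fall of the folding genes was not tested.

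Read against their promoters, the ERSE genes did not all move. Of the 9 members with ERSE, 7 were tested and 4 fell, Hspa5 (with 1 of its 2 probes), Hsp90b1, Calr and Creld2, while Canx, Pdia6 and Dnajc3 were not called. Of 28 other genes with ERSE with a promoter entry, 4 were tested and none fell, with a median of -0.02. Ero1a, P4hb, Pdia3, Pdia5, Dnajb9 and Ssr1, which fell as well, had no ERSE in this window. Pdia3 held neither CCACG nor ACGTG, and the others held both. Atf6, Derl1 and Sil1 also fell but had no promoter entry. These matches are descriptions of the letters, and no factor's binding was measured.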

How the data were processed

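Total RNA of 15 cultures of 5 mouse lines was measured on 60 spotted 2-colour arrays, 30 for each of 2 parts. The deposited values are log ratios of the authors, taken here for log10 values since they stop at exactly -2 and 2. How the arrays were scanned and normalised, and the base and direction of the ratios, is not given in the sources used here. If the base is not 10, log2 sizes and folds change while signs and calls do not. A factor of 3.3219 turned them into log2 ratios, and values at a limit were left out. Ratios were read as culture over reference, because Pabpn1 was higher in the transfected lines on both dye orientations. For WTA culture 3 on part I titles and channel sources disagree on the dye, which does not touch the culture mean. The description of 1 array of D7F culture 1 says high while its title says D7F, and the title was used.

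Probes were named through the platform annotation and updated by Entrez ID to RefSeq symbols. Rows with identical values were joined to 1 probe, and control probes left out. On part I 6722 probes matched and 30 kept their symbol, with 730 unnamed and 7 of several genes. On part II 9239 matched and 648 kept theirs, with 4204 unnamed and 114 of several genes. A gene with several probes is described by the probe with the most filled values inside the limits, with ties settled by array part and then probe ID. Probes needed 2 cultures in every line, each with both dye orientations, and cultures with fewer arrays were dropped, with no value imputed. Of the 28 tested members 24 had all 15 cultures. Each part was fitted with limma 3.58.1 in R 4.3.3 (lmFit and eBayes, a mean for each of the 5 lines), and p-values were adjusted by Benjamini-Hochberg over both parts, with 0.05 as the threshold. The transfected lines were compared as the mean of their 4 line means. Precision is limited by how many arrays there are. No 2 arrays correlated above r = 0.4351.

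The members and the gene lists were chosen with earlier results of these data known. All members are described, those called by name, the rest with the intervals of their differences. From each other list the 3 genes with the largest difference among those called and measured in all 15 cultures are named. Ddit3, Trib3, Atf4 and Herpud1 are named too, with Pabpn1 as a check of the labels. Serpinh1 and Ubqln1 were added for values that the counts of their lists leave out. Alternatives were the limit values kept, arrays centred or scaled, the IM2 sign turned, each dye alone, 1 array or all cultures required, 1 culture per line, poor arrays left out together with 1 array enough, culture number or line as a block, only the lines compared, and each culture left out. The deviations of same-numbered cultures from their line means correlated at r of -0.1815 to 0.4015, with 8 of 30 pairs on part I and 7 of 30 on part II above 0.1. Not every pair passed 0.1, so the numbers were not taken to pair the cultures. Promoters were read from the RefSeq table with Python 3.11.15.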

Additional observations from a re-analysis of the deposited data

How the results depend on the processing

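Of the 28 members, 14 were called in the transfected lines against IM2. The count was 9 with 1 array enough for a culture, 4 without the poor arrays, where 1 array was enough as well, and 8 to 15 with a culture left out, the lowest without IM2 culture 1. Against the 12 of WTA it was 7 with the limit values kept, 6 with centred and scaled arrays, 6 on the Cy5 arrays alone, 3 without the poor arrays, 0 with only the lines compared (limma, 17 at an unadjusted p under 0.05), and 8 to 12 with a culture left out. Against the 10 of WTD it was 6 with the limit values kept, on the Cy3 arrays, with 1 array enough and with only the lines compared, 3 on the Cy5 arrays, 2 without the poor arrays, and 6 to 11 with a culture left out, the lowest without IM2 culture 1, WTD culture 1 or WTD culture 3. Against the 10 of D7E it was 6 on the Cy3 arrays, 3 without the poor arrays and 6 to 11 with a culture left out, the lowest without D7E culture 1. Against the 8 of D7F it was 4 with the limit values kept and with 1 array enough, 1 on the Cy5 arrays, 5 on the Cy3 arrays, 2 without the poor arrays, 2 with only the lines compared, and 3 to 9 with a culture left out, the lowest without D7F culture 2, with 4 without IM2 culture 1 and 5 without IM2 culture 3 or D7F culture 1. Genotype by level went from 0 to 1, Sil1, with all 15 cultures required, and WTA against WTD went from 0 to 1 under that requirement and without IM2 culture 1. Counts for mutant against wild-type and for high against low stayed at 0 in every setting tried. The share of all genes called in each setting is not given here, so these moves cannot be told from moves of all genes. The cause of these moves was not tested.

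With the culture number as a replicate block the counts were 14 for the transfected lines, 11 for WTA, 7 for WTD, 9 for D7E and 5 for D7F. Not every culture was closest to its own number: 6 of 15 on part I and 8 of 15 on part II deviated most like their own number. With the line as a random block 10 members were called. None of the 14 called members changed sign in any of 27 settings, and 3, Ero1a, P4hb and Dnajb9, were called in all of them. The arrays of IM2 limit every comparison with that line, and 9 members on the arrays had too few cultures to be tested.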
